A study of Mus musculus with 6 samples.

Results

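The genes described here are the HOX genes and 4 limb factors of mouse synovial fibroblasts (SFs), fibroblasts of the tissue that lines the joint. They were chosen by name. Every protein-coding gene called Hoxa, Hoxb, Hoxc or Hoxd with a number was taken, together with Pitx1, Tbx4, Tbx5 and Tbx15. This gave 43 of the 49548 genes in the table, namely 39 HOX genes (11 in HOXA, 10 in HOXB, 9 in HOXC and 9 in HOXD) and the 4 limb factors. The SFs came from ankle joints of hTNFtg mice, which carry a human TNF transgene and develop inflammatory arthritis, on a CBA C57BL/6J background at 8 weeks of age. All libraries carry the transgene, so there is no wild-type group. The cells were cultured, and CD45+ blood cells were depleted at passage 1. Of 6 libraries, 3 were from untreated SFs and 3 from SFs given 500 μM amisulpride, an antipsychotic drug and dopamine receptor antagonist, for 48 hours. The controls are labelled as having no treatment, whereas the study's methods speak of vehicle. The labels do not tie the replicates to separate animals, so the tests measure the spread between these libraries.

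HOX genes encode homeodomain transcription factors that lie in 4 clusters. Genes of the same number in different clusters are paralogs, and low numbers are used toward the head while high numbers are used toward the tail and toward the tip of a limb. Fibroblasts of adult tissues are known to keep a HOX pattern that reflects where in the body they arose. Pitx1 and Tbx4 are transcription factors of the hindlimb, Tbx5 is their counterpart in the forelimb, and Tbx15 acts in the mesenchyme of limb and skin.

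The DNA-binding helix of these proteins is much alike, and the short coding stretch for it is shown for the main members that were on, for the silent HOXB genes Hoxb9 and Hoxb13, and for Pitx1. Capitals mark the 18 bases for the 6 amino acids at the core of the recognition helix, by which the stretch was found.
Hoxa10: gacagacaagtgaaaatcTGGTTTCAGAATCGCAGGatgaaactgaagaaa
Hoxa11: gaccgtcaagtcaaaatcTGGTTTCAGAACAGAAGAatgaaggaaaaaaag
Hoxa13: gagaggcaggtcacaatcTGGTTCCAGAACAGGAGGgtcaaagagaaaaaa
Hoxc10: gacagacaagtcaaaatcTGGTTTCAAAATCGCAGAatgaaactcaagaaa
Hoxd10: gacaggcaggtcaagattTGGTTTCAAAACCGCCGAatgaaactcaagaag
Hoxd11: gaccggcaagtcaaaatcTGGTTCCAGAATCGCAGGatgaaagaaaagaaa
Hoxd13: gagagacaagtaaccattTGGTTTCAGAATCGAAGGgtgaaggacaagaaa
Hoxb9: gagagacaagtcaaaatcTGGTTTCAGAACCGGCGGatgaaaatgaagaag
Hoxb13: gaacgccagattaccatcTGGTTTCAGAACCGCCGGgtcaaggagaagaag
Pitx1: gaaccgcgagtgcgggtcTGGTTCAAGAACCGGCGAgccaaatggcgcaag
The sequences are from GENCODE M21 transcripts (GRCm38, which is mm10), in which all 43 genes have the same start and end as in the deposited table. Each HOX stretch lies in the coding part of the last exon. The minus-strand HOXA stretches are chr6:52232560-52232610 in Hoxa10, chr6:52243408-52243458 in Hoxa11 and chr6:52258934-52258984 in Hoxa13. On the plus strand lie chr15:102970971-102971021 in Hoxc10, chr2:74694264-74694314 in Hoxd10, chr2:74684040-74684090 in Hoxd11, chr2:74670053-74670103 in Hoxd13, chr11:96274782-96274832 in Hoxb9 and chr11:96196143-96196193 in Hoxb13. The stretch of Pitx1 is split by an intron within chr13:55826576-55828454, on the minus strand. Over these 51 bases Hoxa10 and Hoxc10 were identical at 47, Hoxa11 and Hoxd11 at 42, and Hoxa13 and Hoxd13 at 38. Over all 42 pairs of HOX genes within a paralog group the median was 44 identical bases, against 39 over 699 pairs from different groups, with ranges of 38 to 50 and 31 to 50 that overlapped. Pitx1 had 24 to 33 bases in common with the HOX genes.

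The reads did not come from this stretch as a rule, since the kit used (QuantSeq) reads the 3′ end of each transcript. In the last 500 bases of the coding transcripts, 16 of the 19 members that were on held no 50-base word found in the transcripts of another gene and no gene on the other strand. The exceptions were Hoxd11, which had 48.3% of its words in common with the overlapping transcript Gm28309, Pitx1, which had 1.6% in common with Gm28760, and Hoxa7, whose window lies opposite the antisense gene Hoxaas3. The level of Hoxd11 is therefore less certain than those of the other members. Whether the counting used strand is not given in the sources used here.

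Values are normalised counts, the number of reads of a gene after the authors scaled each library by a factor and rounded the outcome. A gene is called on if it reached 10 normalised counts in at least 3 of the 6 libraries, whatever their group. The libraries held approximately 2.52 to 4.71 M reads, of which the estimate for untreated replicate 1, 3.99 M, is uncertain, and the 3 reads that a count of 0 allows correspond to 2.5 to 5.37 normalised counts. Amisulpride replicate 3 was the shallowest library and stood apart on the leading principal component of all genes, at 73.9, where the others lay between -38.2 and 10.4. All 12 fibroblast markers were on, with summed levels of 45004 to 59714 in untreated and 51656 to 91388 in treated libraries. Single markers went either way. In the limma fit described below, 7 of the 12 had a log2 fold change above 0 and 5 below, with a median of 0.19. Of these markers 0 had an adjusted p under 0.05, and Prg4 had the lowest p, at -0.92 ± 0.29 (SE, adjusted p = 0.251). Of 10 myeloid markers 9 were on, with sums of 2337 to 3962 and 2105 to 4004. Endothelial markers (0 of 6) and cartilage and bone markers (0 of 8) were not on, whereas 1 of 7 skeletal muscle markers (Acta1) and 2 of 6 skin and nerve markers, Krt10 among them, were. Within these lists the highest mean normalised counts were those of the collagens Col1a1 (20006.3) and Col1a2 (15270.7), against 4 and 1.8 for the endothelial genes Tek and Vwf, 7.5 and 3.5 for the skeletal genes Col2a1 and Sp7, 19.8 and 2.7 for the muscle genes Acta1 and Des, and 20.3 for the skin keratin Krt10. The endothelial cadherin Cdh5, the muscle factors Myod1 and Myf5 and the skin keratins Krt5 and Krt14 were listed at 0 in every library.

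The question of which clusters and paralogs are used in hindlimb SFs was answered by 19 members that were on and 24 that were not. HOXA had 6 of 11 genes on (Hoxa5, Hoxa7, Hoxa9, Hoxa10, Hoxa11 and Hoxa13), HOXC 5 of 9 (Hoxc8, Hoxc9, Hoxc10, Hoxc11 and Hoxc13) and HOXD 5 of 9 (Hoxd8, Hoxd10, Hoxd11, Hoxd12 and Hoxd13). HOXB had 0 of 10. Pitx1, Tbx4 and Tbx15 were on and Tbx5 was not. By comparison, 50.3% of all protein-coding genes and 44.2% of the members passed the same filter, so the members were not on more often than other genes. With a minimum of 5 in place of 10, 24 members were on, and with a minimum of 20, 15. HOXB stayed at 0 under both. Tbx5 and Hoxd9 were among the members on with the minimum of 5.

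**Figure D1:**
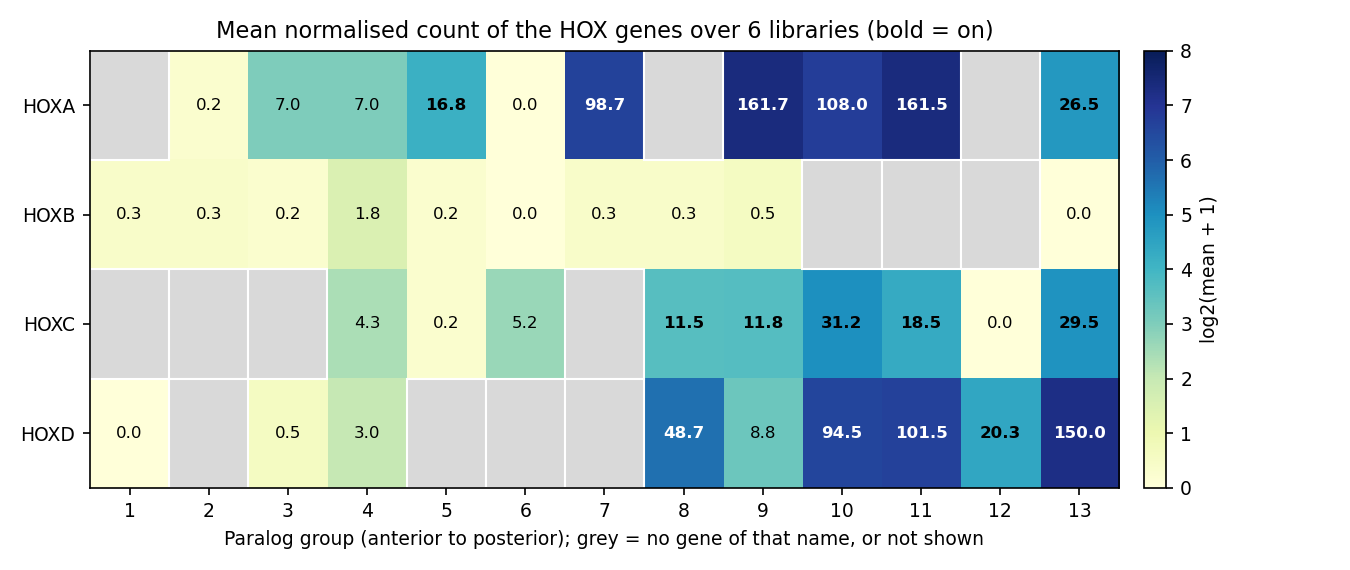
Mean normalised count over the 6 libraries for the HOX genes, by cluster (rows) and paralog group (columns), with the colour giving log2(mean + 1), bold numbers marking genes that were on and grey squares marking numbers with no gene or none shown. HOXA and HOXD are dark from group 7 or 8 to 13, with Hoxd9, Hoxd12 and Hoxa13 paler, and the HOXB row holds no value above 1.8.

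Paralog groups 9 to 13 held most of the HOX expression. On the scale of normalised counts, not divided by length, their genes took 78.2% to 83.6% of the HOX sum in each library. Group 11 took 24.7% of the HOX sum over all libraries, group 10 20.5%, group 13 18.1% and group 9 16.1%. Groups 7 and 8 took 8.7% and 5.3%, and groups 1 to 6 and 12 took at most 1.8% each. All 3 genes were on in groups 10 and 11, and 3 of 4 in group 13, where the silent gene was Hoxb13.

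Among the posterior HOXA genes, which pattern the limb from the upper segment (groups 9 and 10) through the middle segment (group 11) to the foot (group 13), Hoxa9 (ENSMUSG00000038227, chromosome 6, 52223100 to 52231089, minus strand) had 194, 197 and 143 normalised counts in untreated replicates 1 to 3 and 160, 187 and 89 in the treated ones. Hoxa11 (ENSMUSG00000038210, chromosome 6, 52242106 to 52245810, minus strand) had 163, 119 and 178 without and 142, 256 and 111 with the drug. For both genes the treated values spread more widely than the untreated ones and the groups overlapped. Hoxa10 (ENSMUSG00000000938, chromosome 6, 52231197 to 52240854, minus strand) had 128, 118 and 125 normalised counts in untreated and 101, 92 and 84 in treated SFs. All 3 treated values of Hoxa10 lay below the lowest untreated one. Hoxa13, a foot and digit gene, had 12, 22 and 23 in untreated and 22, 48 and 32 in treated libraries. The lowest treated value of Hoxa13 lay under the highest untreated one, so the groups overlapped.

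The more anterior HOXA genes that were on were Hoxa7, which had 73, 106 and 93 in untreated and 83, 153 and 84 in treated libraries, and Hoxa5, which had 20, 30 and 14 and then 8, 15 and 14. Between them in the cluster, Hoxa6 was listed at 0 in all 6 libraries. The anterior genes stayed low, with highest values of 1 in Hoxa2, 13 in Hoxa3 and 25 in Hoxa4. Hoxa4 is the one of these whose groups did not overlap, at 4, 8 and 25 in untreated and 2, 1 and 2 in treated libraries. All its treated values lay under the floor of their library, and a single untreated library reached 10. Tested without the filter, Hoxa4 had a log2 fold change of -2.01 (adjusted p = 0.404).

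In HOXD, whose posterior genes act in the foot and digits, Hoxd13 (ENSMUSG00000001819, chromosome 2, 74668310 to 74671599, plus strand) had 99, 159 and 156 normalised counts in untreated and 125, 178 and 183 in treated SFs. Hoxd11 (chromosome 2, 74679557 to 74687016, plus strand) had 110, 87 and 124 in untreated and 115, 103 and 70 in treated libraries. Hoxd10 (chromosome 2, 74691924 to 74695105, plus strand) was the steadiest, at 97, 89 and 90 and then 88, 99 and 104. The groups overlapped for all 3 genes, and the lowest and highest value of Hoxd10 differed by less than those of any other member with a mean above 50. Hoxd8 had 36, 54 and 36 without and 66, 41 and 59 with the drug, and Hoxd12 had 12, 13 and 22 and then 19, 24 and 32. Hoxd9, which lies between Hoxd8 and Hoxd10, did not pass the filter, with a highest value of 17 and 5 to 8 in the other libraries. The anterior genes were near 0, with highest values of 2 in Hoxd3, 4 in Hoxd4 and 0 in Hoxd1.

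The HOXC genes that were on had mean normalised counts of 11.5 to 31.2, against 20.3 to 150 in HOXD. Per kb of gene length, these means were 3.31 to 15.04, against 6.99 to 55.21. Hoxc13 had normalised counts of 45, 22 and 30 in untreated and 38, 15 and 27 in treated libraries. Hoxc10, a gene of the hindlimb and lower trunk, had 23, 18 and 15 and then 22, 23 and 86, the last in the library that stood apart. Hoxc11, also of the hindlimb, had 15, 16 and 13 in untreated and 30, 19 and 18 in treated libraries, with no overlap between the groups. Hoxc9 and Hoxc8, genes of the trunk and hindlimb, were close to the filter. Hoxc9 had 14, 3 and 9 and then 14, 15 and 16, and Hoxc8 had 11, 11 and 3 and then 14, 5 and 25. Hoxc9 passed through 1 untreated and all 3 treated libraries. Hoxc12, between Hoxc11 and Hoxc13, was listed at 0 throughout, and highest values were 13 in Hoxc4, 1 in Hoxc5 and 12 in Hoxc6.

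No HOXB gene exceeded 4 normalised counts in any library. The highest was Hoxb4, at 0, 2 and 2 in untreated and 4, 3 and 0 in treated libraries. The highest values were 2 in Hoxb2, Hoxb7, Hoxb8 and Hoxb9, 1 in Hoxb1, Hoxb3 and Hoxb5, and 0 in Hoxb6 and Hoxb13. For 9 of the 10 genes no value rose above the floor of its library, so expression of these was not detectable at this depth.

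Of the limb factors, Tbx15 (ENSMUSG00000027868, chromosome 3, 99240381 to 99354259, plus strand) had the highest mean of all members both before and after division by gene length, with 599, 876 and 557 normalised counts in untreated and 414, 572 and 408 in treated SFs. The groups overlapped through a single treated library, which exceeded the lowest untreated one, and the treated value was the lower one in each of the 3 pairs of same-numbered libraries. Tbx4 (ENSMUSG00000000094, chromosome 11, 85886422 to 85916097, plus strand), the hindlimb gene, had 37, 47 and 23 and then 23, 56 and 18. Pitx1 (ENSMUSG00000021506, chromosome 13, 55825051 to 55836192, minus strand), which lies above Tbx4 in the hindlimb program, had 25, 15 and 26 and then 19, 35 and 9. The forelimb gene Tbx5 did not pass the filter, with 6, 4 and 3 in untreated and 8, 9 and 0 in treated libraries. Tbx5 lay above the floor in 5 of the 6 libraries and was on with a minimum of 5, so its call depends on the cutoff. Mean normalised counts were 34 for Tbx4, 21.5 for Pitx1 and 5 for Tbx5, and per kb of gene length 13.05, 6.1 and 0.91.

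**Figure D2:**
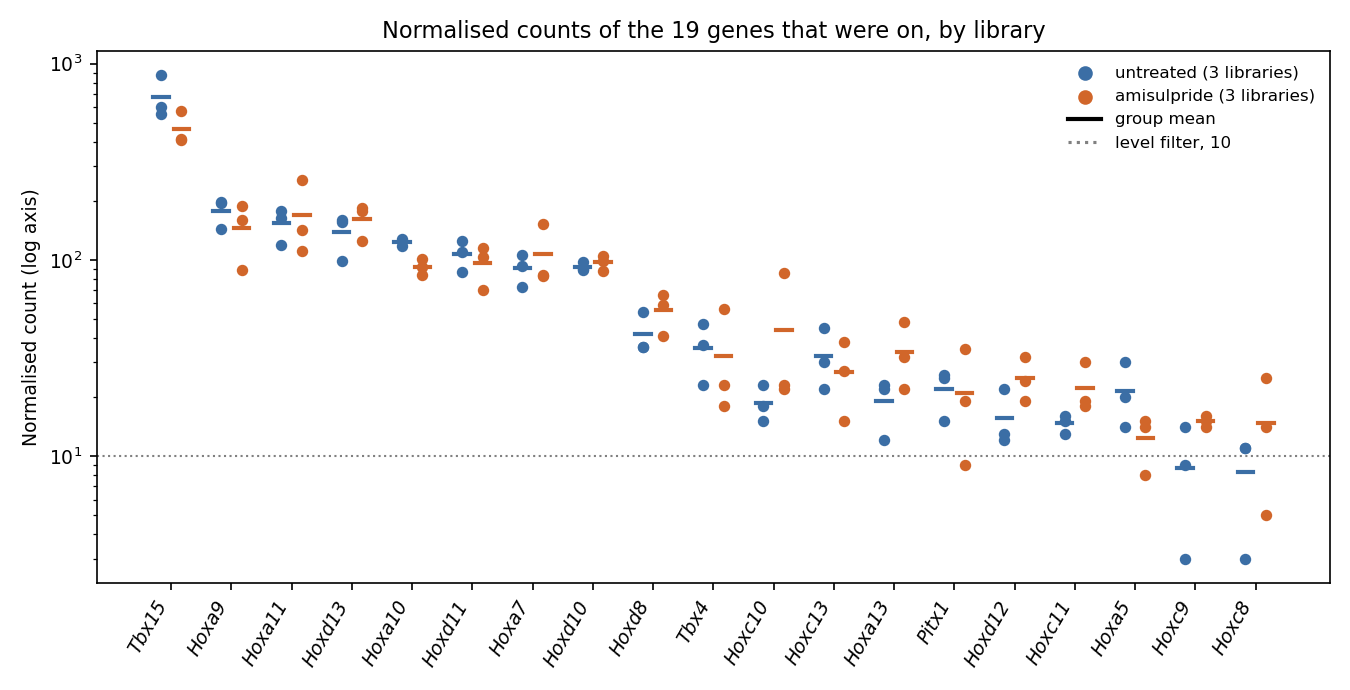
Normalised counts (log axis) of the 19 genes that were on, ordered by mean, with 1 point per library for untreated (blue) and amisulpride (orange) SFs, bars at the group means and a dotted line at the level filter of 10. The 2 colours are apart for Hoxa10 and Hoxc11 and overlap for the other 17 genes, and 1 orange point of Hoxc10, at 86, lies far above the rest.

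Levels of different genes were compared first with the values that the authors divided by gene length, here given per kb. On this scale Tbx15 was highest at 105.78, followed by Hoxa11 at 64.39, Hoxd13 at 55.21, Hoxd10 at 47.46, Hoxa10 at 42.14, Hoxd11 at 39.99 and Hoxa9 at 32.49. Hoxd8 (20.49 per kb), Hoxa7 (19.01 per kb) and Hoxc10 (15.04 per kb) came next, and the other 9 genes were between 3.31 and 13.05 per kb. In every neighbouring pair of this order the ranges over the 6 libraries overlapped. The range of Tbx15, 75.58 to 162.28 per kb, lay above that of each HOX gene but Hoxa11, whose highest value was 102.07 per kb. Since reads of a 3′ kit do not rise with length, division by length understates long genes. The undivided normalised counts are therefore the more direct measure. With them, Hoxa9 had rank 2 rather than 7, and Tbx15, Hoxa11, Hoxd13 and Hoxa10 stayed among the highest 5. The rank of a gene moved by at most 5 places between the scales.

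Along the chromosome, the genes that were on formed a block at the group 13 end of HOXA and HOXD. Distances were taken from the annotated start of the group 13 gene of each cluster to that of each other gene. The HOXD genes that were on lay within 36.3 kb and the HOXA genes within 56.3 kb. Hoxa6, at 52.2 kb with a mean of 0.0 normalised counts, was a gap in the HOXA block. Hoxd9, at 29.4 kb with a mean of 8.8, fell just under the filter but lay above the floor in 5 of the 6 libraries. In HOXC the genes that were on reached 69.5 kb, with a gap at Hoxc12 (15.7 kb). The annotated starts of Hoxa3, Hoxc5 and Hoxd3 belong to long transcripts that begin beside or within other genes, so these stand out of numerical order.

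**Figure D3:**
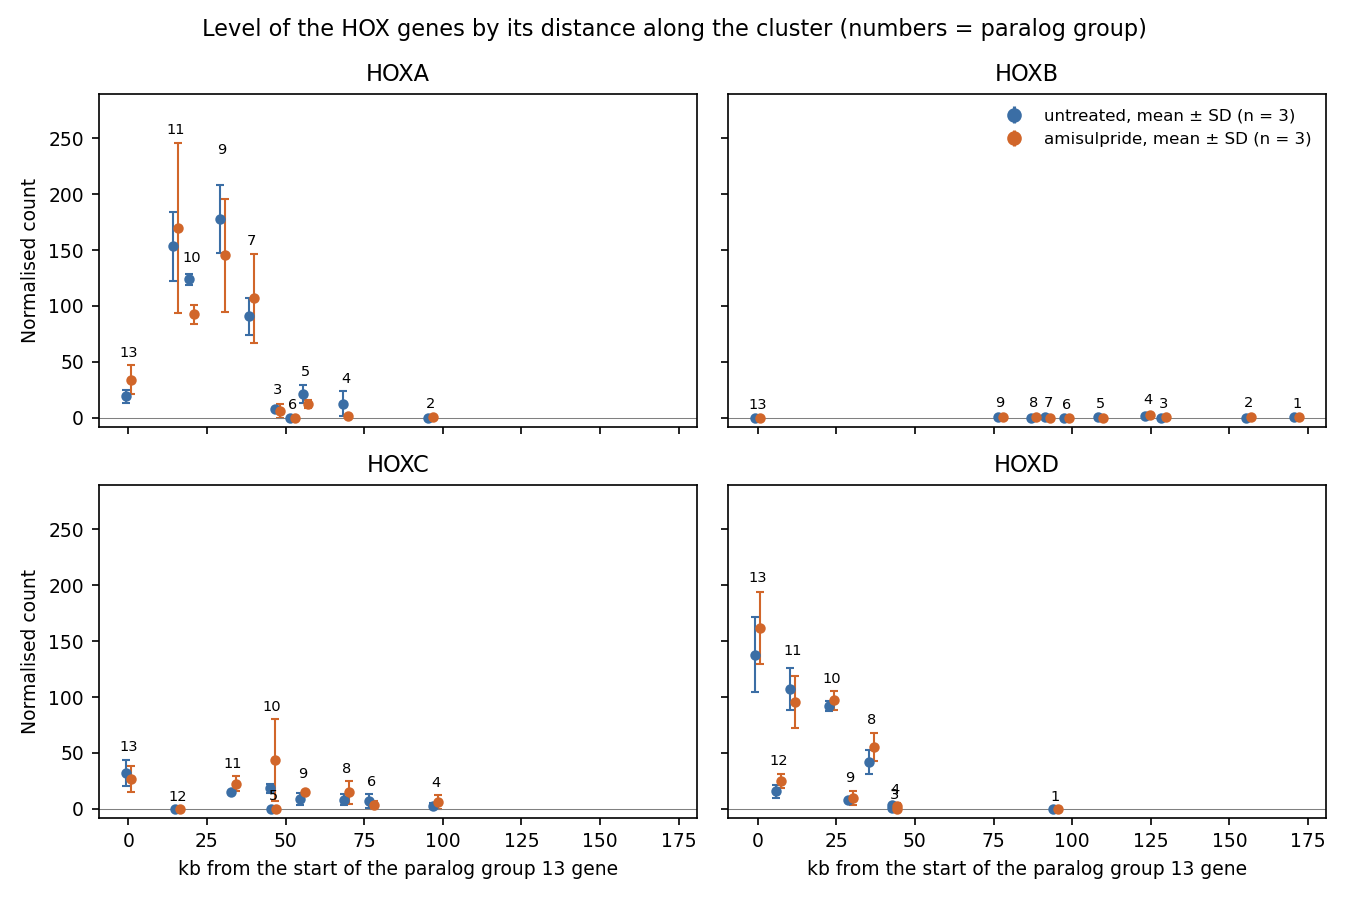
Normalised count of the HOX genes shown (mean and SD, n = 3 per group, untreated in blue and amisulpride in orange) against the distance in kb of its start from that of the group 13 gene, in 1 panel per cluster with numbers giving the paralog group. Levels above 40 in HOXA and HOXD all lie within 39.0 kb of the group 13 gene, and the HOXB panel is flat at 0.

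Other transcripts lie inside the cluster spans. HOXA on chromosome 6 holds 18 noncoding genes, 7 of which were on. Hoxa11os, the antisense transcript that starts within Hoxa11 and is known to oppose it in the developing limb, had 196, 63 and 149 normalised counts in untreated and 215, 134 and 165 in treated libraries. Hotairm1, a noncoding gene known from myeloid cells, had 50, 41 and 52 and then 42, 68 and 34. Gm15050, antisense within Hoxa3, had 17, 24 and 22 and then 27, 29 and 55. The small genes Gm27868, Gm27477 and Gm27861 at Hotairm1 and Gm27543 within Hoxa11os were on as well, and since they lie at or inside those transcripts their reads cannot be told apart from them.

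In HOXD (chromosome 2, 74668310 to 74765142), 2 of 9 noncoding genes were on. Hoxd3os1 had 16 to 31 normalised counts, and Gm28309 had 49 to 84 but had 89.4% of its 3′ words in common with Hoxd11 and Hoxd10. In HOXC (chromosome 15, 102921103 to 103036852) 0 of 7 were on, Hotair among them with a highest value of 4. In HOXB (chromosome 11, 96194316 to 96368256) 1 of 9 was on, Gm11539 at 261 to 438, a processed pseudogene that had 33.9% of its 3′ words in common with the ribosomal protein gene Rpl18. Reads of Rpl18, at 2262 to 3228 normalised counts, may be counted in it, so it says little about HOXB. With limma, 0 of these 10 genes had an adjusted p under 0.05, the lowest being 0.542 in Gm15050, and 0 had an unadjusted p under 0.05.

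Whether amisulpride alters this code was asked with limma on all 12614 genes that passed the filter. Of the 19 members tested, 0 had an adjusted p under 0.05, where 0.285% of all genes tested did (36 genes, 0 to 120 with each library left out in turn, and 263 with the replicate number as a block, while the members gave 0 each time). At an unadjusted p under 0.05 the members also gave 0, against 10.9% of all genes. The study called genes whose level changed by 1 or more on the log2 scale at an unadjusted p under 0.05. At these thresholds the count was 0 of 19 where 5.7% of all genes passed. The groups did not overlap in 2 of the 19 members (10.5%), Hoxa10 and Hoxc11, against 16.5% of all genes. Within the pairs of same-numbered libraries, the treated value lay on the same side in all 3 pairs for 8 of the 19 members (42.1%), against 34.7% of all genes. It was higher in each pair for Hoxa13, Hoxc11, Hoxd12 and Hoxd13 and lower in each for Hoxa9, Hoxa10, Hoxc13 and Tbx15. With the pairs as a block, the lowest adjusted p was 0.328, in Tbx15, with an unadjusted p of 0.0448. The log2 fold change was above 0 in 11 members and below 0 in 8, with a median of 0.08 against 0.00 over all genes tested. These are bulk cultures, in which fewer cells of a type and less RNA per cell cannot be told apart.

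The test left room for changes of moderate size, and in members with wide intervals for a log2 fold change of 1 or -1. Among these were Hoxc9 (95% interval of -0.37 to 2.22), Hoxc10 (-0.23 to 2.04), Hoxa13 (-0.16 to 1.74) and Hoxa5 (-1.77 to 0.32). The median SE of the members' log2 fold change was 0.42, against 0.34 over all genes tested. The narrowest interval was that of Hoxa10, whose log2 fold change of -0.42 ± 0.25 (SE, adjusted p = 0.581) had a 95% interval of -0.97 to 0.13. Hoxd10 had 0.07 ± 0.25 with an interval of -0.48 to 0.63, and Hoxa11 had 0.08 ± 0.33 with an interval of -0.65 to 0.80. For Hoxa10, Hoxd10 and Hoxa11 a change of 1 in either direction lay outside the interval in the fit without a block. The intervals of Hoxd13 (-0.39 to 0.88), Hoxd11 (-0.81 to 0.47), Hoxa7 (-0.51 to 0.88) and Tbx4 (-1.27 to 0.77) also held 0. In this fit, which had no block, so did those of all 19 members. With the pairs as a block, the interval of Tbx15 was -1.049 to -0.014 and left out 0 (adjusted p = 0.328). That of Hoxa10 was -1.002 to 0.16 with the block and -1.133 to 0.225 without untreated replicate 2, and so held -1. The interval of Hoxa11 without untreated replicate 3 was -0.69 to 1.074 and held 1.

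The member with the lowest p was Tbx15, which had 677.3 ± 173.3 normalised counts (SD, n = 3) in untreated and 464.7 ± 93 in treated SFs, that is -0.53 ± 0.27 (SE) on the log2 scale (adjusted p = 0.506). Hoxa13 followed at 0.79 ± 0.43 with an adjusted p of 0.543. The log2 fold changes furthest above 0 were 0.92 ± 0.59 in Hoxc9 and 0.91 ± 0.52 in Hoxc10, and the one furthest below 0 was -0.73 ± 0.48 in Hoxa5, with adjusted p of 0.616, 0.569 and 0.627. The value of Hoxc10 rested on 1 library, and without amisulpride replicate 3 it was 0.28 ± 0.43. Hoxc9 was 0.38 without untreated replicate 2, where it had 3 normalised counts, and Hoxa5 was -0.46 without untreated replicate 2 or amisulpride replicate 1. Without amisulpride replicate 1, Hoxa13 passed the thresholds of the study, at 1.06 with an unadjusted p of 0.0453 and an adjusted p of 0.369. Leaving out either untreated replicate 1 or amisulpride replicate 2 moved Hoxa13 to 0.51. Hoxc11, with no overlap between the groups, had 0.54 ± 0.42 and an adjusted p of 0.689. The hindlimb genes Tbx4 and Pitx1 had -0.25 ± 0.47 and -0.21 ± 0.51, with adjusted p of 0.876 and 0.909.

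**Figure D4:**
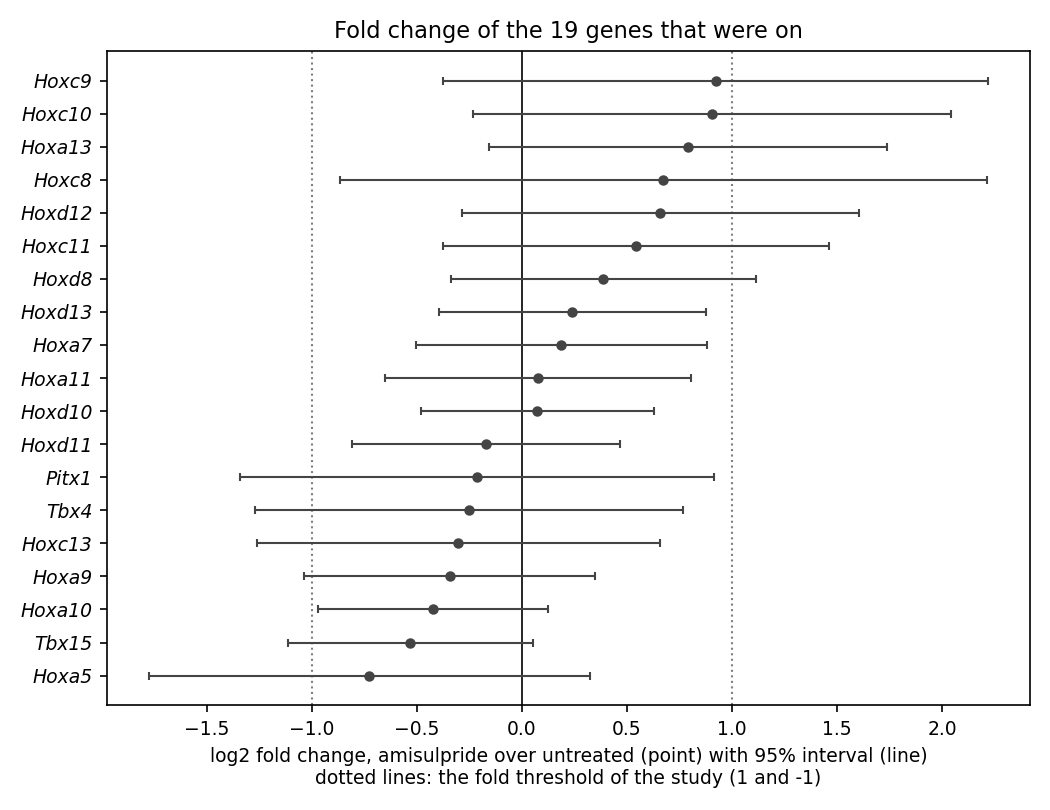
Log2 fold change of amisulpride over untreated (points) with 95% intervals (lines) from limma on log2(normalised count + 1) for the 19 genes that were on, n = 3 libraries per group, with dotted lines at 1 and -1. In this fit without a replicate block every interval crosses 0, from Hoxa5 at -0.73 to Hoxc9 at 0.92.

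The summed HOX level was described without a test, and its split between clusters was tested on the share of each cluster per library. The 39 HOX genes summed to 1100, 1112 and 1134 normalised counts in untreated and 1087, 1322 and 1071 in treated libraries, which overlapped. HOXA took 54.97% ± 0.41 (SD, n = 3) of the sum without and 48.93% ± 8.98 with amisulpride. The treated libraries scattered on both sides of the untreated ones, at 48.4%, 58.2% and 40.2%. HOXD took 36.4% ± 2.88 and 38.91% ± 3.53, HOXC 8.33% ± 2.82 and 11.75% ± 5.5, and HOXB 0.3% ± 0.22 and 0.41% ± 0.29. In an exact permutation test (two-sided, 4 tests), p was 0.4 for HOXA, HOXC and HOXD and 0.6 for HOXB, or 0.533 and 0.6 after Benjamini-Hochberg adjustment, where 0.1 is the smallest p that 3 against 3 libraries allow. With values per length HOXA took 48.19% and HOXD 42.55% in untreated SFs, and the p-values were the same. These differences depended on single libraries. Without amisulpride replicate 3 they were -1.69 percentage points for HOXA, 0.65 for HOXC and 0.82 for HOXD, against -6.03, 3.41 and 2.51 with all libraries, and without amisulpride replicate 2 they were -10.65, 6.14 and 4.34. Without untreated replicate 1 that of HOXD was 0.9.

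**Figure D5:**
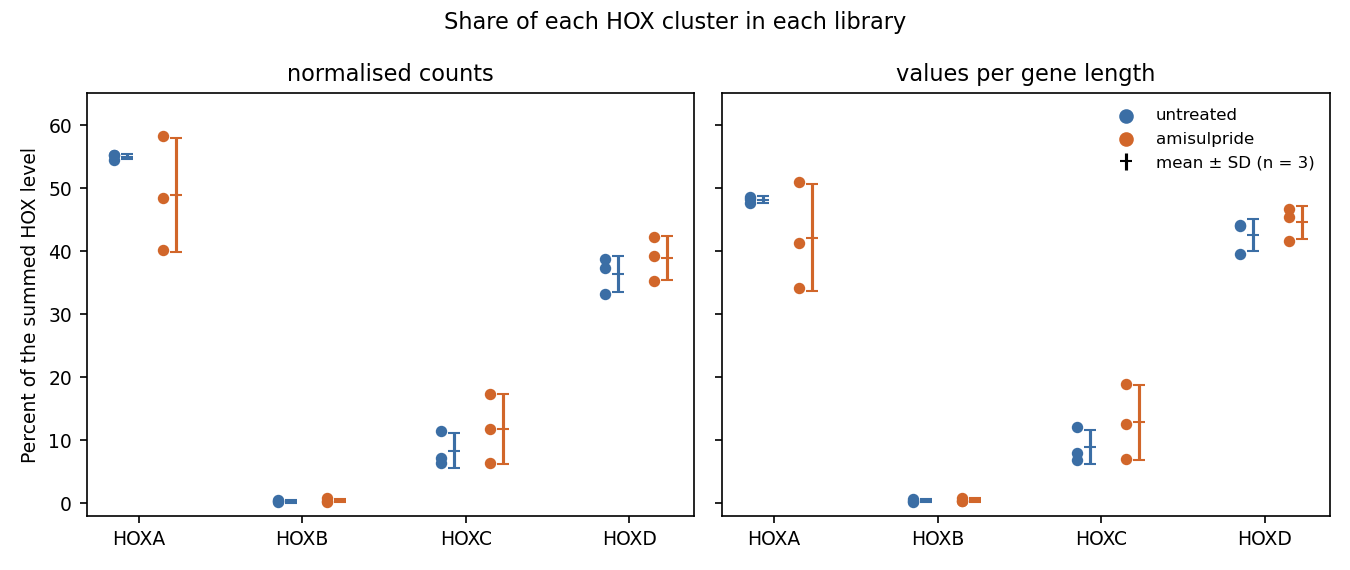
Percent of the summed HOX level that each cluster took in each library (points) with the mean and SD (bars, n = 3), untreated in blue and amisulpride in orange, for normalised counts (left) and values per gene length (right). HOXA and HOXD together take most of the sum in both panels, the HOXA points of treated SFs spread from 40.2% to 58.2% on the left, and HOXB is near 0.

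Of the 9 myeloid markers tested with limma, 2 had a log2 fold change above 0 and 7 below, with a median of -0.34, and 0 had an adjusted p under 0.05. The 2 above 0 were Adgre1 at 0.83 ± 0.43 and Cd68 at 0.31 ± 0.33 (log2 fold change ± SE, adjusted p = 0.518 and 0.78). The markers Cd14 and Csf1r had an unadjusted p under 0.05. Cd14, a receptor for bacterial lipopolysaccharide, had 121, 69 and 76 normalised counts in untreated and 47, 25 and 13 in treated libraries, and Csf1r, the receptor for macrophage colony-stimulating factor, had 114, 93 and 76 and then 41, 23 and 100. Both passed the thresholds of the study, at -1.75 ± 0.44 and -1.01 ± 0.46 (log2 fold change ± SE, adjusted p = 0.144 and 0.456). Csf1r passed them only with all libraries or without amisulpride replicate 3 (-1.57), and without amisulpride replicate 2 it was -0.53. With the replicate block the adjusted p of Cd14 was 0.012. The myeloid marker Lyz2 had the highest level of that list at a mean of 2254.5, with a log2 fold change of -0.14 ± 0.34. Hoxa9 and Hoxa10 are also known from immature blood cells, and the part of myeloid cells in their levels was not tested.

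HOX proteins bind DNA together with cofactors of the TALE class, and 7 of 9 of these were on. None of the 7 had an adjusted p under 0.05 or passed the thresholds of the study, and 2, Meis2 among them, had an unadjusted p under 0.05. The median log2 fold change was -0.02. Pbx2 had 313, 269 and 224 and then 241, 210 and 106, with overlap between the groups. Meis1 did not pass the filter, with a highest value of 3.

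Polycomb proteins keep HOX genes silent and Trithorax proteins keep them active. Of 28 Polycomb genes 25 were tested and 0 had an adjusted p under 0.05, with a median log2 fold change of 0.09. One of them, Rybp, passed the thresholds of the study. Rybp, a subunit of Polycomb repressive complex 1, had 35, 66 and 64 in untreated and 86, 103 and 589 in treated libraries, or 1.70 ± 0.61 on the log2 scale (adjusted p = 0.308, and 0.0274 with the replicate block). The value of 589 came from the library that stood apart, and without it the log2 fold change of Rybp was 0.82. Without untreated replicate 1 it was 1.41, with an unadjusted p of 0.0792. All 15 Trithorax genes were tested, with 0 calls at either threshold, 2 genes (Dpy30 and Ash2l) at an unadjusted p under 0.05 and a median of 0.00. Wdr5 and Ash2l, subunits of the histone H3 methyltransferase complexes, had the highest means of that list, at 350.5 and 213.5 normalised counts.

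Among 26 other genes of limb mesenchyme 17 were on, of which 0 had an adjusted p under 0.05, 1 was higher and 1 lower at the thresholds of the study, and the median log2 fold change was 0.03. Meox2, a homeobox gene of limb muscle and vessels, had 34, 84 and 37 and then 72, 155 and 157, or 1.33 ± 0.42 on the log2 scale (adjusted p = 0.242, and 0.0355 with the replicate block). Tbx3, a T-box gene of the limb margins, had 27, 14 and 21 and then 11, 8 and 7, or -1.14 ± 0.48 on the log2 scale (adjusted p = 0.417). The groups did not overlap for Tbx3, and for Meox2 they did. With 1 library left out Meox2 stayed past the thresholds of the study, and Tbx3 did so without amisulpride replicate 1 (-1.31) or untreated replicate 2 (-1.38) but not without any other library (unadjusted p of 0.0647 to 0.137). The mesenchymal homeobox genes Prrx2 and Prrx1 had means of 935.3 and 570.5 normalised counts.

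Of 18 homeobox and forkhead genes listed for head patterning, 4 were on, and Alx1, Pax7 and Otx2 were among those at 0 in all libraries. The list is not specific to the head, as Pax7 is also among the skeletal muscle markers used here. With limma, 0 of the 4 had an adjusted p under 0.05, 0 had an unadjusted p under 0.05, and all 4 log2 fold changes were above 0, with a median of 0.64. Six2 had the highest mean, 53.5 normalised counts, with 26, 32 and 19 in untreated and 37, 23 and 184 in treated libraries, the last again in the library that stood apart, without which its log2 fold change moved from 1.08 to 0.21. Pax9 came next at a mean of 15 normalised counts.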

How the data were processed

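RNA from 3 untreated and 3 amisulpride-treated cultures of hTNFtg SFs was profiled with the QuantSeq 3′ kit on an Ion Proton instrument. Per the submitters' notes and the study's methods, the authors mapped reads to mm10 with TopHat2 and then Bowtie2, counted them per gene with GenomicRanges and normalised them for DESeq within metaseqr (versions not given in the sources used here). The deposited values are a score, namely counts scaled by a factor per library and rounded. The authors also deposited the same values per gene length, their own fold changes and p-values, which were not used, and 6 columns on a log scale, not used either. Raw counts were not analysed here, so the study's DESeq test was replaced by limma.

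The value of 1 read in each library was estimated from the pattern of rounded values and gives approximate depths and the floor of 3 reads. Floors cover counting error only. Genes with at least 10 normalised counts in at least 3 of 6 libraries were tested after a log2 transform (pseudocount of 1) by limma (version 3.58.1, R 4.3.3) with a mean-variance trend. Tests were two-sided, with Benjamini-Hochberg adjustment over all genes tested. This scale understates the change of low genes. The fit was tested on simulated data. These held no pairs and no library that stood apart, so they do not test the p-values given here. The share of each cluster was compared by an exact permutation test. Coding stretches and 3′ ends came from GENCODE M21. One member that was not on, 1 coding stretch and some genes of the other lists are not reported here, and every other member was named. From each other list up to 3 genes per direction past a threshold were named, or else the 2 with the highest mean, and in the cluster spans the noncoding genes that were on. Lyz2, Adgre1, Cd68, Prg4, Meis1, Meis2, Dpy30, Hotair, Rpl18, Prrx1, Prrx2 and the markers at 0 were added after their values were seen. So were the fits of named genes of other lists with each library left out and the direction of members within pairs. The members and lists were chosen with earlier results of these data known.

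Same-numbered libraries of the groups deviated together from their group means (correlations of 0.229, 0.24 and 0.201 for replicates 1 to 3). The labels do not state a pairing, and libraries with unlike numbers were not compared in this way. The main fit had no block, so intervals and p-values given without mention of a block ignore such pairs. The numbers were taken as possible pairs in an alternative with a replicate block. Further alternatives used other pseudocounts, filters, scalings, library weights and each library left out.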

Additional observations from a re-analysis of the deposited data

How the results depend on the processing

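The 19 members gave 0 genes with an adjusted p under 0.05 in limma under each of the 14 alternatives, with lowest adjusted p of 0.328 to 0.712. The count past the thresholds of the study was 1 without a filter (Hoxa4) and 0 to 1 with each library left out, and 0 otherwise. The count over all genes was 57 with a pseudocount of 5, 57 with no filter, 66 after quantile normalisation, 195 when libraries were weighted and 0 to 120 with each library left out, namely 0 without untreated replicate 2 or 3, where 1083 and 911 genes had an unadjusted p under 0.05. The replicate block gave 263 genes over all genes tested and 0 members, with 1 member, Tbx15, at an unadjusted p under 0.05. Among the members and the named genes of the other lists, it changed the call at an adjusted p under 0.05 for Cd14, Rybp and Meox2 only. The noncoding genes of the cluster spans and Rpl18 were not examined with the block. Of 262 log2 fold changes of members under the alternatives, 253 kept their sign and 9 changed it, in 6 members, none of them called. When libraries were weighted Tbx4 was 0.02 and Pitx1 0.118. With each library left out Tbx4 ranged from -0.723 to 0.07, Pitx1 from -0.663 to 0.261, Hoxa11 from -0.266 to 0.333, Hoxa7 from -0.101 to 0.336, Hoxc13 from -0.597 to 0.046 and Hoxd11 from -0.315 to 0.039, and the difference in cluster share, in percentage points, from -10.65 to -1.69 for HOXA, -0.05 to 0.23 for HOXB, 0.65 to 6.14 for HOXC and 0.82 to 4.34 for HOXD. The cause was not tested. Scaling to the same total moved the median of all genes to -0.07 and that of the members to 0.00. Depth limits the 24 members that were not on, which were not tested with the filter in place.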
